A study of Mus musculus with 4 samples.

Results

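The genes described here encode the enzymes of cholesterol synthesis and of fatty acid synthesis, elongation and desaturation, together with the proteins that control both routes. The members were taken by name: 35 symbols, of which 35 were found among the 52535 gene models of the count files. They comprise 18 sterol pathway enzymes, 12 fatty acid pathway enzymes and 5 regulators of the SREBP transcription factors. They were chosen with earlier results of these data known.

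RNA was sequenced from pancreatic duct cells taken from mice of the C57BL/6 strain. There were 2 libraries of wild-type mice, named WT 1 and WT 2 here, and 2 libraries labelled Lats1/2 KO, named KO 1 and KO 2. The KO genotype is given as Lats1fl/fl; Lats2fl/fl; Sox9-CreER, in which a tamoxifen-activated Cre recombinase made in Sox9-expressing cells removes the floxed parts of the kinase genes Lats1 and Lats2. Lats1 and Lats2 restrain the co-activators YAP and TAZ, and the comparison asks what changes in duct cells when both are deleted. The wild-type animals are labelled only as wild type, so whether they carried Sox9-CreER or received tamoxifen is not given in the sources used here. The same holds for the ages of the mice, the time after induction and the way duct cells were isolated.

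Cholesterol is built from acetyl-CoA through the mevalonate route to squalene and then by ring closure and removal of methyl groups. Fatty acids are built from the same acetyl-CoA, after its carboxylation to malonyl-CoA, and are then elongated and desaturated. When membrane sterol is low, the escort protein SCAP carries SREBP from the endoplasmic reticulum to the Golgi, where proteases release the part that enters the nucleus. INSIG proteins hold SCAP back when sterol is plentiful. In many tissues SREBP2 mainly drives the sterol genes and SREBP1 the fatty acid genes, so that members of a branch often rise or fall together.

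Where a group has a pair of values, replicate 1 comes first. Library totals ran from 3566387 to 5925601 counts. Levels are TMM-scaled CPM, the counts of a gene relative to the counts of its library over the genes tested. They are given by library or as mean ± SD (n = 2). Log2 fold changes compare KO with wild type, so that a positive value is higher in KO, and the model's standard error (SE) follows them. A gene changed, rose or fell where its p, from the quasi-likelihood test of edgeR and Benjamini-Hochberg adjusted over 13990 genes, was under 0.05. Whether replicates are separate animals is not given in the sources used here, and p-values then reflect only the spread between these samples, which may be technical. The targeted genes were not lower in the libraries labelled KO. Lats1 stood at 50.8 and 65.6 CPM in wild type and at 70.0 and 79.2 CPM in KO, and Lats2 at 114 and 102 CPM against 163 and 121 CPM. Counts over whole gene models do not check a deletion of some exons.

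Both groups held RNA of cells other than duct cells, and the mixture differed between them. The summed level of 12 duct markers was 2121 and 2613 CPM in wild type and 15260 and 15430 CPM in KO. The 20 acinar markers summed to 66250 and 119400 CPM in wild type and to 240 and 6581 CPM in KO. The 12 macrophage markers summed to 950 to 1019 CPM in wild type and 6435 to 9700 CPM in KO, and all 12 rose. The 10 fibroblast markers summed to 3241 and 2754 CPM in wild type and 16350 and 10930 CPM in KO. The 10 T and NK cell markers and the 10 B cell markers all fell, and so did 7 of 10 endothelial, 8 of 8 smooth muscle and 7 of 8 Schwann cell markers. The 10 islet markers summed to 1152 and 2190 CPM in wild type and 287 and 182 CPM in KO, with Ins1, Ins2 and Sst lower and Nkx6-1 higher. Fewer cells of a type and less RNA per cell cannot be told apart in such bulk libraries. WT 1 stood apart in a further respect that touches the lipid genes. Its 8 hepatocyte markers summed to 7704 CPM, against 226 CPM in WT 2, 29.2 CPM in KO 1 and 17.2 CPM in KO 2. Alb, which encodes serum albumin, reached 5788 CPM in WT 1 and 139, 3.22 and 1.13 CPM in the other libraries. Where leaving out WT 1 changed the call of a member, the value without it is given.

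**Figure D1:**
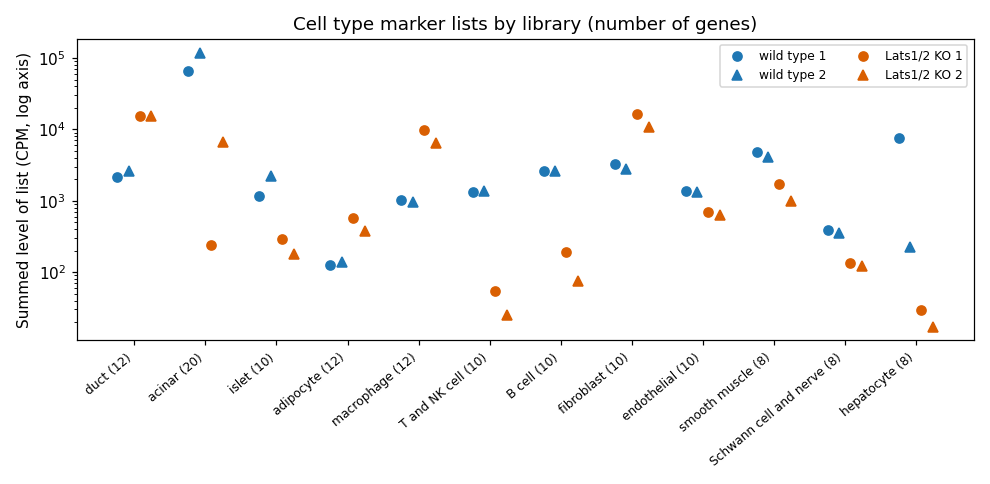
Summed level of each cell type marker list (CPM, log axis) in the 4 libraries, with the number of genes in parentheses. The hepatocyte list separates WT 1 (7704 CPM) from WT 2 (226 CPM), while duct, macrophage and fibroblast lists are higher in both KO libraries than in both wild-type libraries.

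Most of the sterol and fatty acid synthesis genes did not pass the test between genotypes. Of 35 members, all of them tested, 3 rose and 3 fell in the libraries labelled KO (17.1% changed), while 42.2% of all genes tested changed, 22.0% higher and 20.2% lower. The median log2 fold change of the members was 0.16, and that of all genes tested was -0.01. Acss2 and Acacb fell more than 5-fold and Idi1 fell 1.79-fold. Elovl1 rose 1.90-fold, Hsd17b7 1.67-fold and Cyp51 1.42-fold. A p above the threshold does not show that a gene was equal in both groups, but the 95% intervals bound the difference. For 17 of the 29 members that did not pass, the interval lay within a 2-fold change in either direction. For 6 of the 29 the interval excluded 0: Fdft1, Dhcr7, Srebf1, Fasn, Scd1 and Elovl6.

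**Figure D2:**
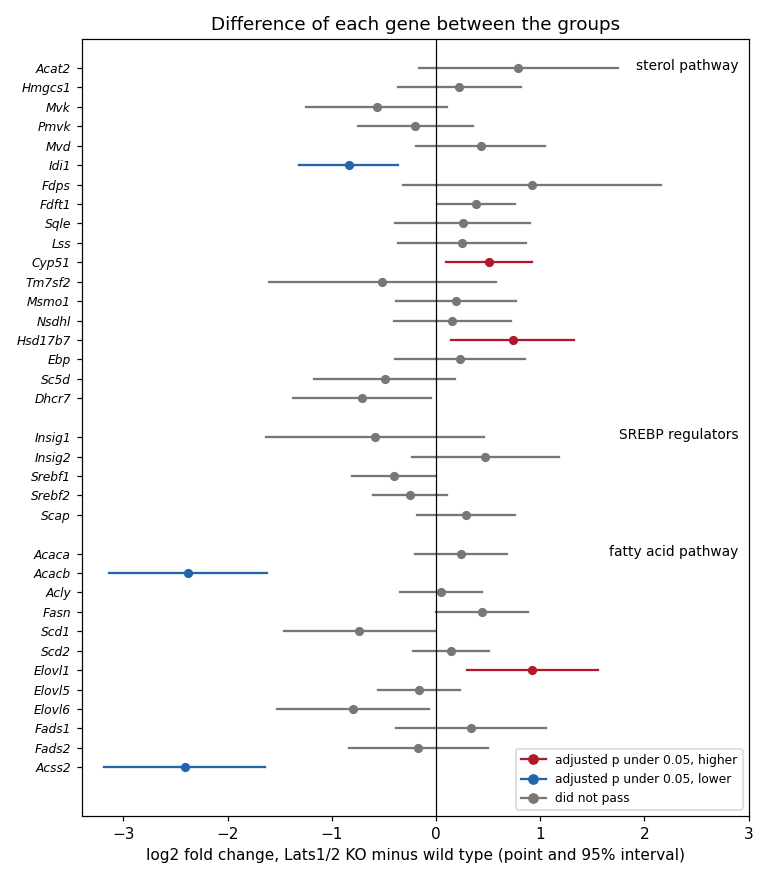
Log2 fold change of each member (point) with its 95% interval (line), KO-labelled minus wild type, in red or blue where the adjusted p was under 0.05. Acss2 and Acacb lie near -2.4, apart from all other members, which lie between -0.84 and 0.92.

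The 18 sterol enzymes summed to 626 and 498 CPM in wild type and to 608 and 621 CPM in KO. The 12 fatty acid enzymes summed to 1286 and 937 CPM in wild type and to 1062 and 1036 CPM in KO. In both branches the KO sums lay below that of WT 1 and above that of WT 2. All members had counts in all 4 libraries.

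The largest changes concerned the supply of acetyl-CoA and the carboxylase of the mitochondrial surface. Acss2, the nuclear and cytosolic enzyme that makes acetyl-CoA from acetate, had 99 and 86 counts in wild type and 25 and 23 counts in KO. Its levels were 27.2 and 19.3 CPM in wild type and 5.03 and 3.72 CPM in KO. Both KO libraries were far below both wild-type libraries. Acss2 fell 5.31-fold (log2 fold change -2.41 ± 0.34 SE, edgeR adjusted p = 0.000771). Acly, which makes the same product from citrate, was at 233 and 184 CPM in wild type and at 211 and 220 CPM in KO. The Acly groups overlapped, with a log2 fold change of 0.05 and a 95% interval from -0.34 to 0.44 (edgeR adjusted p = 0.840).

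Acacb, the acetyl-CoA carboxylase at the outer mitochondrial membrane whose malonyl-CoA restrains fatty acid oxidation, was at 36.8 and 27.0 CPM in wild type and at 4.43 and 7.61 CPM in KO. It fell 5.21-fold (log2 fold change -2.38 ± 0.33 SE, edgeR adjusted p = 0.000752). Acaca, the cytosolic carboxylase that feeds fatty acid synthesis, was at 50.3 and 60.5 CPM in wild type and 71.4 and 59.2 CPM in KO, and its groups overlapped (log2 fold change 0.24, 95% interval -0.20 to 0.68, edgeR adjusted p = 0.356). For each Acaca count there were 0.732 and 0.446 Acacb counts in wild type and 0.062 and 0.128 in KO. The falls of Acss2 and Acacb passed under each of the 13 alternative settings, with log2 fold changes from -2.64 to -2.13 for Acss2 and from -2.81 to -2.06 for Acacb. These settings include the omission of WT 1, the library highest in hepatocyte markers. WT 2 also held more of these markers (226 CPM) than KO 1 and KO 2 (29.2 and 17.2 CPM). The part of hepatocyte RNA in these falls was not tested.

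Markers of several other cell types were lower in the same libraries. The 20 acinar markers summed to 66250 and 119400 CPM in wild type, against 240 CPM in KO 1 and 6581 CPM in KO 2. Of 19 tested, 3 fell. In KO, Amy2a5 was at 0 and 0, Ctrc at 0 and 0.486 and Bhlha15 at 0.805 and 0.971 CPM. The other tested acinar markers did not pass, and all but Prss1 had negative log2 fold changes. Acss2 stood at 5.03 and Acacb at 4.43 CPM in KO 1, and at 3.72 and 7.61 CPM in KO 2. The T and NK cell, B cell, endothelial, smooth muscle, Schwann cell and islet markers that fell are counted above. The part of acinar cells and of these other cells in the fall of Acss2 and Acacb was not tested. The 10 endothelial markers summed to 1392 and 1324 CPM in wild type and to 698 and 638 CPM in KO. The Acss2 model overlaps those of Gss and Ggt7 on the opposite strand, and whether the counting used strand is not given in the sources used here.

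**Figure D3:**
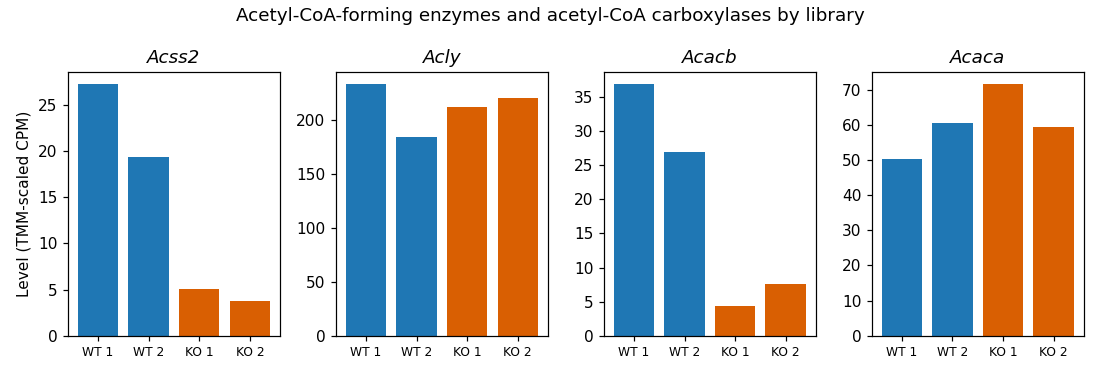
Level (TMM-scaled CPM, bars from 0, each panel with its own axis) of 2 enzymes that form acetyl-CoA (Acss2, Acly) and of the 2 acetyl-CoA carboxylases (Acacb, Acaca) in each library. The KO bars of Acss2 and Acacb are all below 8 CPM, while those of Acly and Acaca overlap the wild-type bars.

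The sequences before the starts of Acss2 and Acacb are shown because these genes had the largest changes, each as the 250 bases upstream of a RefSeq start (GRCm38.p6), 5′ to 3′ on the gene's strand. Capitals mark matches to a sterol regulatory element core (TCACNCCAC), an NF-Y box (CCAAT), an Sp1 box (GGGCGG) or an E-box (CACGTG), searched on both strands. The Acss2 sequence lies at chr2:155517793-155518042, plus strand, and the Acacb sequence at chr5:114165268-114165517, plus strand. Both RefSeq starts lie inside the gene models of the count files, which begin at 155517948 for Acss2 and at 114146535 for Acacb. The Acss2 window lies partly and the Acacb window wholly inside these models.
Acss2: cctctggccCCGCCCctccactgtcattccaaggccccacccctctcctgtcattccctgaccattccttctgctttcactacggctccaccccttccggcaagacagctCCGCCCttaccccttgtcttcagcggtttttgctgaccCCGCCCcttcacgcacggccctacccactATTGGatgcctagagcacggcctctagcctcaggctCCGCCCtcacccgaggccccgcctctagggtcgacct
Acacb: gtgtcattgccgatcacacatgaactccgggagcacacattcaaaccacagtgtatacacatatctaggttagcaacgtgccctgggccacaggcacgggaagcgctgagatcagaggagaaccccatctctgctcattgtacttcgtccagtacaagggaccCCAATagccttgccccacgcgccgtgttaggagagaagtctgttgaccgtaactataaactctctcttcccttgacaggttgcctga
The Acss2 window held 4 Sp1 boxes and 1 NF-Y box, the latter beginning 73 bases before the start. The Acacb window held 1 NF-Y box, 87 bases before the start. Such matches describe letters and are not evidence of binding.

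Of the 12 fatty acid pathway members, Elovl1 was the only other that passed, and it was higher. Elovl1 elongates saturated and monounsaturated very long chains. It was at 17.9 and 30.3 CPM in wild type and at 50.3 and 41.8 CPM in KO (log2 fold change 0.92 ± 0.28 SE, edgeR adjusted p = 0.0262), so the groups did not overlap. When WT 1 was left out its value was 0.61 (edgeR adjusted p = 0.122), with KO 1 left out 0.79 (edgeR adjusted p = 0.133) and with KO 2 left out 1.09 (edgeR adjusted p = 0.0543). These did not pass, and neither did the value with upper quartile scaling (0.73, edgeR adjusted p = 0.0602). The Elovl1 model overlaps that of Cdc20 on the opposite strand. In all, 1 of the 12 fatty acid enzymes rose (8.33%, against 22.0% of all genes tested) and 2 fell (16.7%, against 20.2%). Their median log2 fold change was -0.06. Both KO libraries lay above both wild-type libraries for 2 of the 12 and below them for 5, against 37.4% and 36.8% of all genes tested.

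Fasn, the synthase that makes palmitate, was at 154 and 109 CPM in wild type and at 182 and 177 CPM in KO. It did not pass (log2 fold change 0.44 ± 0.19 SE, edgeR adjusted p = 0.0975), but did without WT 1 (0.73, edgeR adjusted p = 0.0377). Scd1, the main stearoyl-CoA desaturase of liver and fat, was at 364 and 191 CPM in wild type and at 159 and 174 CPM in KO. WT 1 stood far above the other libraries. The Scd1 difference did not pass (log2 fold change -0.74 ± 0.30 SE, edgeR adjusted p = 0.0939), and without WT 1 it was -0.19 (edgeR adjusted p = 0.575). Without WT 2 it was -1.13 and passed (edgeR adjusted p = 0.0037), and with all libraries it passed by DESeq2 (adjusted p = 0.0368). Scd2, a desaturase isoform found in many tissues and closely related in sequence, was at 160 and 143 CPM in wild type and 159 and 176 CPM in KO, with a log2 fold change of 0.15. There were 2.28 and 1.33 Scd1 counts for each Scd2 count in wild type, and 0.999 and 0.987 in KO. How reads shared between them were counted is not given in the sources used here.

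Elovl6, which elongates palmitate to stearate, showed the same order as Scd1, with 31.9 and 17.5 CPM in wild type and 13.9 and 14.4 CPM in KO. Its log2 fold change was -0.80 (edgeR adjusted p = 0.0747) with all libraries and -0.29 without WT 1 (edgeR adjusted p = 0.558). With WT 2 left out it was -1.17 and passed (edgeR adjusted p = 0.0185), as it did with upper quartile scaling (-0.99, edgeR adjusted p = 0.0329). Elovl5, an elongase of polyunsaturated fatty acids, held 86.8 and 86.5 CPM in wild type and 84.3 and 70.2 CPM in KO. The desaturases of polyunsaturated fatty acids, Fads1 and Fads2, had overlapping groups, with log2 fold changes of 0.34 and -0.17. Without WT 1, Fads1 was higher in KO and passed (0.84, edgeR adjusted p = 0.037), and Fads2 was at 0.31 and did not. Both were higher in WT 1 than in WT 2, Fads1 at 78.0 against 42.9 CPM and Fads2 at 45.6 against 25.6 CPM.

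Per length of exon sequence, Scd1 and Acly were the most abundant transcripts of the fatty acid branch. Scd1 stood at 74.5 and 39.0 CPM per kilobase in wild type and at 32.5 and 35.5 CPM per kilobase in KO. Acly stood at 44.0 and 34.8 CPM per kilobase in wild type, and its KO libraries, with a mean of 40.8 CPM per kilobase, lay between these. The order of Scd1 and Acly therefore did not hold beyond the spread between libraries. By this measure Acss2 was the lowest of the 12 in both groups, with mean levels of 2.29 and 0.431 CPM per kilobase. Acacb and Acaca were level in wild type, at 3.31 and 3.24 CPM per kilobase, and at 0.625 and 3.83 CPM per kilobase in KO. The lengths join all annotated exons (10163 bases for Acss2, 9632 for Acacb and 17074 for Acaca). Transcripts can be shorter than that, so the order of genes depends on this choice of length.

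**Figure D4:**
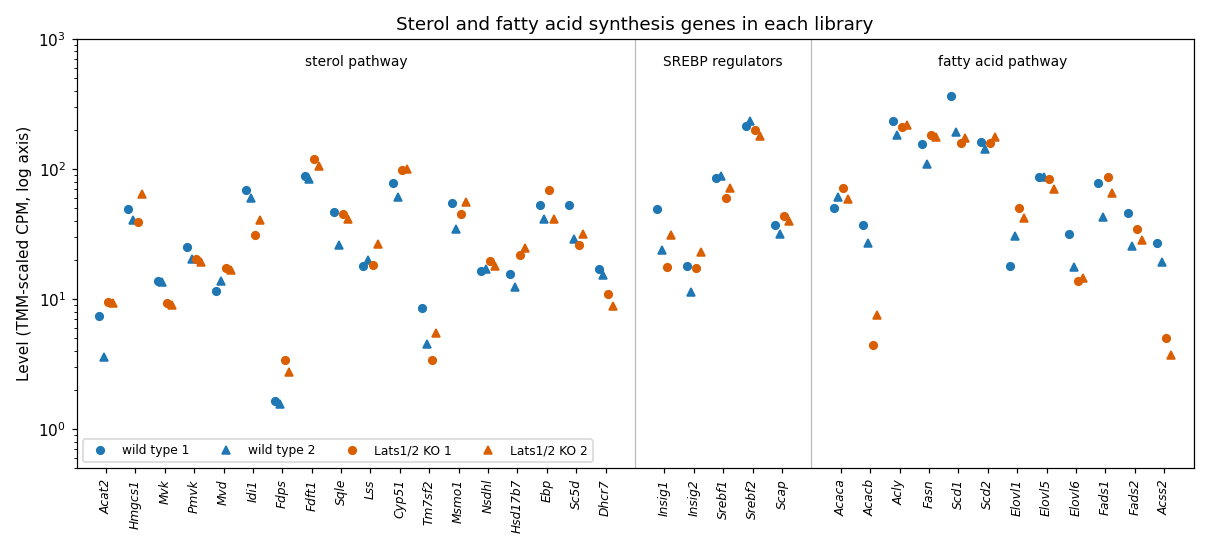
Level of each member (TMM-scaled CPM, log axis) in the 4 libraries, by branch, in blue for wild type and orange for Lats1/2 KO, with circles for replicate 1 and triangles for replicate 2. The KO points of Acacb (4.43 and 7.61 CPM) and Acss2 (5.03 and 3.72 CPM) lie well below the wild-type points, and WT 1 is the highest point for Scd1, Elovl6, Sc5d and Insig1.

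In the sterol branch 2 of 18 enzymes rose (11.1%, against 22.0% of all genes tested) and 1 fell (5.56%, against 20.2%), with a median log2 fold change of 0.23. Both KO libraries lay above both wild-type libraries for 7 of the 18 and below them for 3, against 37.4% and 36.8% of all genes. The first steps of the mevalonate route did not pass. Acat2, which joins acetyl-CoA units, had 16 to 58 counts per library, and the closely related Acat3 may share its reads. Hmgcs1, which forms HMG-CoA, was at 48.9 and 40.2 CPM in wild type and at 39.4 and 64.4 CPM in KO. The groups overlapped and KO 2 was the highest library (log2 fold change 0.23 ± 0.26 SE, edgeR adjusted p = 0.515). The kinases Mvk and Pmvk and the decarboxylase Mvd, which turn mevalonate into isopentenyl diphosphate, had log2 fold changes of -0.57, -0.20 and 0.43.

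Idi1, the isomerase that turns isopentenyl diphosphate into the allylic unit for chain growth, was at 69.0 and 59.6 CPM in wild type and at 31.2 and 40.5 CPM in KO. Both KO libraries were below both wild-type libraries, and Idi1 fell 1.79-fold (log2 fold change -0.84 ± 0.21 SE, edgeR adjusted p = 0.012). With WT 1 left out the value was -0.72 (edgeR adjusted p = 0.0653) and with KO 1 left out -0.66 (edgeR adjusted p = 0.0681), neither of which passed. Idi1 passed in the other 11 alternatives. Fdps, which makes farnesyl diphosphate, had only 6 to 17 counts per library, and its 95% interval reached from a 0.802-fold to a 4.48-fold level. Fdft1, the squalene synthase at the branch point to sterols, was at 88.2 and 84.3 CPM in wild type and at 120 and 106 CPM in KO (log2 fold change 0.38, edgeR adjusted p = 0.0903). The Fdft1 model overlaps on the opposite strand that of Ctsb, whose counts were 1465 and 1583 in wild type and 9310 and 9007 in KO. How far the models overlap, and whether in exons, was not examined. Without knowing the use of strand, reads from a shared stretch cannot be told apart.

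Squalene epoxidation and ring closure did not pass. Sqle, the epoxidase and a control point of the route, was at 46.7 and 25.9 CPM in wild type and at 45.3 and 41.1 CPM in KO. Its groups overlapped and WT 2 was the lowest library (log2 fold change 0.26 ± 0.28 SE, edgeR adjusted p = 0.497). Lss, the lanosterol synthase, had a log2 fold change of 0.25. Of the enzymes that follow lanosterol, Cyp51 and Hsd17b7 passed narrowly. Cyp51, the lanosterol demethylase, was at 77.8 and 61.1 CPM in wild type and at 97.8 and 99.9 CPM in KO (log2 fold change 0.51 ± 0.18 SE, edgeR adjusted p = 0.0497). Hsd17b7, a ketoreductase that works with the demethylation complex, was at 15.7 and 12.4 CPM in wild type and at 21.9 and 24.6 CPM in KO (log2 fold change 0.74 ± 0.26 SE, edgeR adjusted p = 0.0485). For both genes the groups did not overlap.

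Cyp51 did not pass in 9 of 13 alternatives, among them the omission of WT 2 (0.35, edgeR adjusted p = 0.293), KO 1 (0.53, edgeR adjusted p = 0.115) or KO 2 (0.53, edgeR adjusted p = 0.114). Hsd17b7 did not pass in 9 of 13, among them the omission of any library (edgeR adjusted p = 0.0646 to 0.233), with a value of 0.93 when WT 1 was left out. The Cyp51 model overlaps that of Akap9 on the opposite strand. The partners of these enzymes in removing methyl groups, Msmo1 and Nsdhl, had log2 fold changes of 0.19 and 0.16. In the late steps, the isomerase Ebp was at 0.23 with overlapping groups, the desaturase Sc5d at -0.49 and the reductase Tm7sf2 at -0.51. Sc5d passed without WT 2 (-0.86, edgeR adjusted p = 0.0367) and was at 0.0094 without WT 1. Tm7sf2 shares its strand and part of its model with Vps51. Dhcr7, which makes cholesterol from its immediate precursor, was at 17.0 and 15.3 CPM in wild type and 10.9 and 8.90 CPM in KO (log2 fold change -0.71 ± 0.29 SE, edgeR adjusted p = 0.0812). With upper quartile scaling Dhcr7 passed (-0.91, edgeR adjusted p = 0.0346).

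Per length, Fdft1 and Ebp led the sterol branch in both groups, at mean levels of 20.4 CPM per kilobase each in wild type and 26.6 and 23.9 CPM per kilobase in KO. Idi1 was the third of 18 in wild type (18.3 CPM per kilobase) and stood at 10.2 CPM per kilobase in KO. By these counts Fdps was the lowest in both groups, at 0.383 and 0.734 CPM per kilobase. How reads that map to several places were counted is not given in the sources used here.

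The upstream sequences of Hmgcs1, Idi1 and Cyp51 are shown to set a standard sterol-responsive promoter beside those of the sterol genes that fell and rose, with capitals as before. They lie at chr13:119690101-119690350, plus strand, at chr13:8885356-8885605, plus strand and at chr5:4104698-4104947, minus strand (RefSeq, GRCm38.p6). The Idi1 and Cyp51 windows lie partly inside the gene models of the count files, which begin at 8885501 and, on the minus strand, at 4104746.
Hmgcs1: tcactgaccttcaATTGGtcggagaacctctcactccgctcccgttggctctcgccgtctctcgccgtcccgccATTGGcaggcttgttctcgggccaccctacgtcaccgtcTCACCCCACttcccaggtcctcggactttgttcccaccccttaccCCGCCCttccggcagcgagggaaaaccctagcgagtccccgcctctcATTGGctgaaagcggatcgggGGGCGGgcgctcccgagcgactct
Idi1: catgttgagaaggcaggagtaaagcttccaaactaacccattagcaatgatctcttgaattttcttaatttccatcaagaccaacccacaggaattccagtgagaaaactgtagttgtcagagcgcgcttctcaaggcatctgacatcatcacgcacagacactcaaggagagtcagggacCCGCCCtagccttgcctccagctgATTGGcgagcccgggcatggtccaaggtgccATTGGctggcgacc
Cyp51: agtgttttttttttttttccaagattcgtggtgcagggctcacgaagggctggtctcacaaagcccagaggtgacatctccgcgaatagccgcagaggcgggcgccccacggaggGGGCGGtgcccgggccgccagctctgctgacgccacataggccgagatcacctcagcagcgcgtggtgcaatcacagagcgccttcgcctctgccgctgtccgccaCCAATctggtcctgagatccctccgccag
The table of RefSeq promoters held 29 of the 35 members and 10359 of the genes tested. The sterol regulatory element core was found in 1 of the 29 windows, that of Hmgcs1, where it begins 137 bases before the start, and in 1.04% of all 27025 promoters of the same length. NF-Y boxes, bound by a factor that acts together with SREBP at many sterol genes, were found in 13 of 15 sterol enzyme windows (86.7%), in 5 of 9 fatty acid enzyme windows (55.6%) and in 35.7% of the windows of genes tested. Sp1 boxes were found in 14 of 15, in 4 of 9 and in 58.5%, and E-boxes in 2 of 15, in 1 of 9 and in 8.28%. The Idi1 window held 2 NF-Y boxes and 1 Sp1 box and that of Cyp51 held 1 of each. The window of Hsd17b7, the other sterol gene that rose, held 3 NF-Y boxes, 3 Sp1 boxes and 1 E-box. The 4 motifs share no letters in the windows printed here.

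Among the 5 regulators 0 rose and 0 fell in edgeR's test, against 22.0% and 20.2% of all genes tested. At an unadjusted p under 0.05, 0 were higher and 1 lower (Srebf1), and 0 passed by DESeq2 and by limma-voom. Srebf2, which encodes the sterol-directed SREBP, was at 215 and 234 CPM in wild type and at 199 and 179 CPM in KO. Both KO libraries were lower, but the difference was small (log2 fold change -0.25 ± 0.16 SE, 95% interval -0.61 to 0.11, edgeR adjusted p = 0.235). Srebf1, which encodes the fatty acid-directed SREBP, was at 84.9 and 88.6 CPM in wild type and at 59.6 and 71.7 CPM in KO (log2 fold change -0.40 ± 0.18 SE, edgeR adjusted p = 0.0984). It passed with upper quartile scaling (-0.60, edgeR adjusted p = 0.0234), and its model overlaps that of Rai1 on the opposite strand. Insig1, itself a target of SREBP and a common readout of its activity, was at 49.5 and 23.8 CPM in wild type and at 17.5 and 30.9 CPM in KO. The groups overlapped, with WT 1 alone high (log2 fold change -0.58 ± 0.43 SE, edgeR adjusted p = 0.318), and without WT 1 the value was 0.04 (edgeR adjusted p = 0.942). Insig2 and Scap had log2 fold changes of 0.47 and 0.29.

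The spread between the wild-type libraries was uneven over the members. WT 1 exceeded WT 2 more than 1.5-fold for 11 of 35 members (31.4%), and for 10.9% of all genes tested. The 11 were Acat2, Sqle, Tm7sf2, Msmo1, Sc5d, Insig1, Insig2, Scd1, Elovl6, Fads1 and Fads2. The reverse held for 1 member, Elovl1, and for 1535 of the 13990 genes. In the KO pair, KO 2 exceeded KO 1 by this ratio for 4 members (11.4%, against 12.4% of all genes) and KO 1 exceeded KO 2 for 1, Ebp. Other lipid genes with high levels in liver were also high in WT 1. Thrsp, a lipogenic co-factor, was at 73.6 CPM in WT 1 and 4.05 CPM in WT 2, and the transporter Slc27a2 had 188 counts in WT 1 and 0 in each of the other libraries. The hepatocyte markers that were high in the same library are given above, and their part in the spread of the members was not tested. Without WT 1, the median log2 fold change was 0.36 for the sterol enzymes and 0.18 for the fatty acid enzymes, with 1 sterol enzyme higher and 0 lower, and 2 fatty acid enzymes higher and 2 lower.

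Adipocyte markers were examined because fat cells are rich in fatty acid synthesis enzymes. Of 12 markers, 7 could be tested, and 4 of them rose. Cfd (adipsin) had 0 counts in wild type and 253 and 155 counts in KO, at least 98.7-fold higher, with the floor set at 3 counts over the group. Adipoq had 0 counts in wild type and 32 and 22 in KO, at least 13.1-fold higher. Lep was at 0 in all libraries. The 3 tested markers that did not pass had negative log2 fold changes, -0.98 for Plin4, -0.62 for Lipe and -0.13 for Fabp4. The list summed to 128 and 140 CPM in wild type and to 573 and 383 CPM in KO, of which Lpl, also made by macrophages, held 440 and 283 CPM. The part of fat cells in the levels of Fasn or Elovl1 was not tested.

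Of 118 tested genes on the other lipid lists, 34 rose and 7 fell (34.7% changed, against 42.2% of all genes tested), with a median log2 fold change of 0.18. The rises made up 28.8% of these genes, against 22.0% of all genes, and the falls 5.93%, against 20.2%. In the triglyceride and phospholipid synthesis list 6 of 16 rose (37.5%) and 0 fell. The largest rise there was that of Plin2, a coat protein of lipid droplets (8.69-fold, from 27.1 ± 7.16 to 235 ± 27.0 CPM, SD, n = 2). In the acyl-CoA synthetase and fatty acid uptake list, with 11 of 13 genes tested, 4 rose (36.4%) and 0 fell, led by the lipase Lpl (7.17-fold). Of 13 other elongases, desaturases and elongation partners 8 had enough counts to be tested. Of these 8, 5 rose (62.5%) and 0 fell, led by Fads3 (4.99-fold). The others that rose were Elovl7, Hsd17b12, Hacd1 and Hacd2. Hsd17b12 and the Hacd enzymes act in later steps of the elongation round begun by an Elovl enzyme. Tecr, Hacd3 and Fads6 did not pass, with log2 fold changes of 0.21, 0.18 and -0.58.

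NADPH is the reductant of both routes. Of 8 genes for NADPH and citrate supply 4 rose and 1 fell. The 4 were Pgd (3.28-fold) and G6pdx of the pentose phosphate route, Idh1 and the malic enzyme Me1. The gene that fell was Acss1, the mitochondrial counterpart of Acss2, from 36.4 ± 1.83 to 10.3 ± 0.582 CPM (SD, n = 2), a 3.53-fold fall (log2 fold change -1.82 ± 0.23 SE, edgeR adjusted p = 0.000476). Both acetate-using enzymes were thus lower in the libraries labelled KO.

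On the sterol side, 6 of 14 genes for uptake, storage and transport rose (42.9%, against 22.0% of all genes tested). In the same list 2 fell (14.3%, against 20.2%). Lrp1, an endocytic receptor of lipoproteins and many other ligands, rose 5.61-fold, and Stard4, a sterol carrier that SREBP controls, fell 2.74-fold. Of 10 genes for LXR and sterol efflux, Abca1, the cholesterol exporter, rose 3.44-fold and Nr1h3, which encodes LXR alpha, fell 3.27-fold, though with KO 2 left out Nr1h3 did not pass (edgeR adjusted p = 0.0532). Lrp1, Abca1, Plin2 and Lpl are abundant in macrophages, whose 12 markers rose in the same libraries, and the part of macrophages in these rises was not tested. Of the 10 SREBP proteases and transport partners 4 rose and 0 fell, against 22.0% and 20.2% of all genes tested. The share of this list that changed in either direction was no higher than that of all genes tested (42.2%). Its largest rise was that of the protease Mbtps2 (2.25-fold), which did not pass without WT 1 or without KO 1. In the isoprenoid branch 2 of 12 rose (16.7%) and 0 fell, led by Nus1, a subunit of the enzyme that makes dolichol precursors (2.47-fold).

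Of 17 tested genes for fatty acid oxidation 1 rose and 1 fell (5.88% each, against 22.0% and 20.2% of all genes tested). Etfdh, an electron carrier enzyme, rose 1.53-fold and Ppargc1a, a co-activator of mitochondrial genes, fell 2.92-fold. Neither passed with DESeq2. Ppargc1a did not pass with any 1 library left out, and Etfdh did not with WT 2, KO 1 or KO 2 left out. Of 12 lipogenic transcription factors and co-factors 1 rose (8.33%, against 22.0% of all genes tested) and 2 fell (16.7%, against 20.2%). Mid1ip1, an activator of acetyl-CoA carboxylase, rose 1.76-fold, but not when WT 1, WT 2 or KO 2 was left out. Mlx, a partner of glucose-responsive factors, fell 1.76-fold and Sp1 fell 1.44-fold. The fall of Mlx was lost when WT 2, KO 1 or KO 2 was left out and with DESeq2 or total-count scaling. For the lists with 0 falls, 1 gene each was lower at an unadjusted p under 0.05 in the isoprenoid and the triglyceride list and 0 in the others, and DESeq2 and limma-voom called 0 genes lower in any of them.

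**Figure D5:**
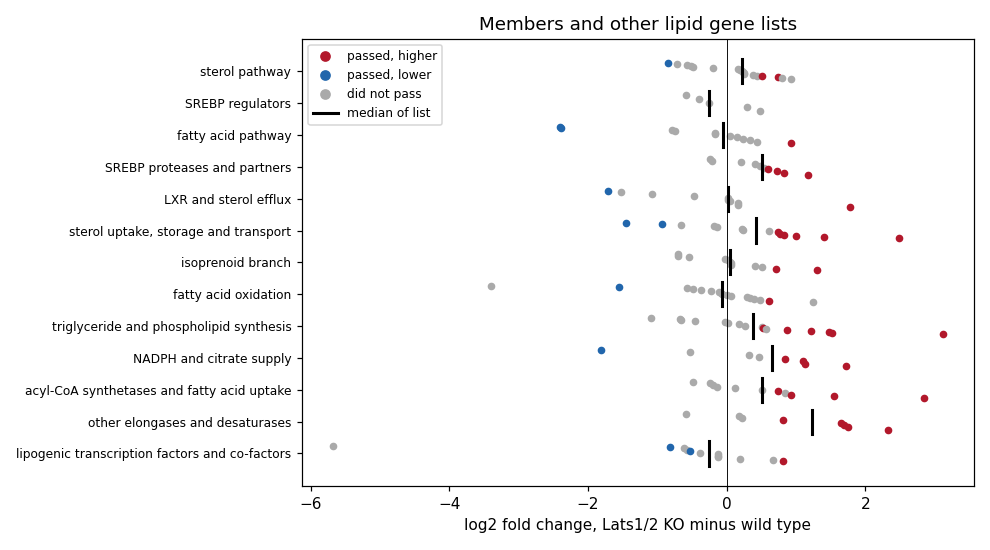
Log2 fold change (KO-labelled minus wild type) of each tested gene by list, in red or blue where the adjusted p was under 0.05 and grey otherwise, with a black bar at the median. The sterol and fatty acid pathways have medians of 0.23 and -0.06, and the other elongases and desaturases one of 1.23.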

How the data were processed

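RNA-seq libraries of pancreatic duct cells, 2 per genotype, were analysed, grouped by the sample titles. The values deposited by the authors are unnormalised read counts for each gene model. Per the submitters' processing notes the build was mm10 and the tools were TopHat and edgeR. For the counting program, annotation and use of strand, the sources used here give nothing. Libraries held 3566387, 4735183, 5082636 and 5925601 counts (WT 1, WT 2, KO 1, KO 2).

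Genes with low counts were removed by filterByExpr. TMM factors and the tests came from edgeR 4.0.16 (R 4.3.3; glmQLFit with robust estimation, glmQLFTest, genotype as the only term, 2 residual degrees of freedom). Intervals are 95% intervals from the fit. DESeq2 1.42.0, limma-voom (limma 3.58.1), 4 other scalings, no filter, no robust estimation, a replicate block and the omission of each library were the alternatives. The procedure was tested on simulated data. Libraries of a pair differed beyond sampling noise (chi-square per degree of freedom 20.06 and 19.98).

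The members and lists were chosen with earlier results of these data known. Library values are given for members that passed and for Srebf1, Srebf2, Insig1, Hmgcs1, Sqle, Fasn and Scd1. Other members with library values, and pathway genes beyond each list's largest rise and fall, were chosen after their values were seen, as was the 1.5-fold ratio. Lengths are exon unions of GENCODE M21. All 26 models with date-like names stayed in. Start coordinates are counted from 1.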

Additional observations from a re-analysis of the deposited data

How the results depend on the processing

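Acss2 and Acacb kept their call in all 13 alternatives, and Idi1, Cyp51, Hsd17b7 and Elovl1 did not. Of the 29 that did not pass, 13 changed sign in some alternative, and the lowest edgeR adjusted p of a reversed value was 0.458. Leaving out 1 library at a time gave log2 fold changes from -0.14 (KO 2) to 0.54 for Hmgcs1, -0.11 (WT 2) to 0.75 for Sqle, -0.015 (KO 2) to 0.50 for Lss and -0.91 to 0.0165 (WT 1) for Tm7sf2. The ranges were -0.098 (WT 2) to 0.56 for Msmo1, -0.19 (KO 1) to 0.59 for Ebp, -0.86 to 0.0094 (WT 1) for Sc5d and -1.03 to 0.045 (WT 1) for Insig1. For the fatty acid enzymes they were -0.11 (WT 2) to 0.24 for Acly, -0.032 (WT 2) to 0.84 for Fads1 and -0.53 to 0.31 (WT 1) for Fads2, which was at 0.0031 without KO 2. The library in parentheses is the one whose omission turned the sign. Upper quartile scaling, which moved the median of all genes from -0.01 to -0.20, gave -0.0076 for Msmo1, -0.039 for Nsdhl, -0.15 for Acly and -0.052 for Scd2. With it, 0 sterol enzymes rose and 2 fell, 1 regulator fell, 0 fatty acid enzymes rose and 4 fell, and 13 other lipid genes fell. Of all genes 2339 were then higher and 3594 lower, against 3077 and 2832 with TMM.

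The count of sterol enzymes that rose, 2 in edgeR with TMM, was 0 with RLE size factors, total counts, DESeq2 or no robust estimation and 1 with scaling without acinar genes. With no filter 2 fatty acid enzymes rose. Leaving out 1 library gave 0 to 1 sterol enzymes higher and 0 to 2 lower, 0 to 2 fatty acid enzymes higher and 2 to 4 lower, 22 to 28 other lipid genes higher and 4 to 15 lower, and 1867 to 2276 genes lower in all. Of the latter, 1867 came without KO 2. The cause of these shifts was not tested.

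The replicate numbers give no pairing beyond a shared number (correlation of same-numbered deviations 0.0355). With the replicate block 2 fatty acid enzymes rose and 4 fell (Fasn, Scd1 and Elovl6 passed in addition) and 15 other lipid genes fell, and no member lost its call. Low counts limit Fdps, Acat2 and Tm7sf2 most, with SEs up to 0.544.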
